A study of Mus musculus with 9 samples.

Results

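Vascular tone in the lung is set in part by ion channels of the arterial wall, and 9 genes for such channels or their subunits were described here, of the 53342 genes in the deposited table. They were chosen by symbol: Kcnk3, Kcna5, Kcnj8, Abcc9, Kcnma1 and Kcnmb1 for potassium channels, and Cacna1c, Trpc6 and Trpc1 for channels that admit calcium. Each symbol matched a single row, and all 9 genes passed the filter on low counts. RNA came from whole lung of C57BL/6 mice (C57BL/6J in the treatment protocol), and poly(A) RNA libraries were made with a kit that keeps strand. The groups were 3 samples of mice kept in hypoxia and given parathyroid hormone (PTH, replicates 3, 4 and 5), 3 of mice kept in hypoxia (replicates 1, 2 and 5) and 3 of mice in normoxia (replicates 2, 3 and 5). Hypoxic mice stayed at 10% oxygen for 3 weeks, a standard way to raise pulmonary artery pressure in mice, and the PTH group received the fragment of residues 1 to 34 at 40 µg/kg per day. Titles mark the hypoxia and normoxia samples as WT and give the PTH samples no such mark, and no engineered allele is named. A saline sham group is mentioned, but which samples it comprises is not stated, and ages were not given. The comparisons address how hypoxia, and PTH during hypoxia, bear on expression of these channel genes in the lung.

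In smooth muscle cells of pulmonary arteries, open potassium channels keep the membrane potential negative and voltage-gated calcium channels closed. When potassium channels close or are fewer, the membrane depolarises, calcium enters through L-type channels and the vessel constricts. Receptor-operated and store-operated cation channels of the TRPC family are another route of calcium entry. Loss-of-function variants of human KCNK3 and lower expression of KCNA5 are known from pulmonary arterial hypertension, and TRPC6 is known from hypoxic vasoconstriction in mice. Because whole lung was sequenced, and several of these genes are also expressed in heart, nerve or other lung cells, fewer cells of a type and less RNA per cell cannot be told apart in any value below.

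Totals ran from 40234030 to 58391086 counts per sample, and 19640 genes were tested. Vascular cells were present in every library. Summed smooth muscle markers (10 genes, Acta2 and Myh11 among them) stood at 1230 to 1479 CPM (counts scaled by TMM to a common library size) with PTH, 1377 to 1767 CPM in hypoxia and 1232 to 1960 CPM in normoxia, with none of the 10 called changed in any comparison. Summed pericyte markers (8 of 10 listed genes found) were 1048 to 1199 CPM with PTH, 1055 to 1266 CPM in hypoxia and 739 to 871 CPM in normoxia, and 3 of the 8, Cspg4 among them, rose in each hypoxic group against normoxia. Summed endothelial markers were 4109 to 4862 CPM with PTH, 3531 to 4718 CPM in hypoxia and 3411 to 4623 CPM in normoxia. Libraries also differed within groups: the sum of 12 cardiac muscle markers was lowest in PTH replicate 5, at 76.9 CPM, and highest in hypoxia replicate 5, at 1768 CPM, while the clock output gene Dbp was 159.5 to 316 CPM in hypoxia replicates 1 and 2 and normoxia replicates 2 and 3 but 6.13 to 16.5 CPM in the other 5 libraries, all 3 PTH libraries among them. Summed adipocyte markers were 216 to 276 CPM with PTH, 142 to 438 CPM in hypoxia and 114 to 214 CPM in normoxia. With PTH most of that sum was Lipe, at 199 to 246 CPM, against 71.4 to 142 CPM in normoxia. The other markers did not follow it. Over the 6 tested, the median log2 fold change was -2.68 with PTH against hypoxia and -1.62 with PTH against normoxia. Apart from Lipe, each tested marker overlapped between PTH and both other groups. None of the 12 cardiac markers, of the 6 adipocyte markers tested (Lep and Ucp1 did not pass the filter), of the 8 endothelial markers or of the 9 clock genes was called changed in any comparison.

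Measured per transcript length, in TPM (a length-scaled share of each library's transcripts, from the deposited table, whose floor is 1 TPM), Kcnk3 was the most abundant of the 9, at a mean of 46.3 TPM over the 9 samples. Trpc6 followed at 14.4 TPM, Kcnj8 at 11.8 TPM, Cacna1c at 7.43 TPM, Trpc1 at 6.32 TPM, Abcc9 at 4.60 TPM and Kcnmb1 at 4.25 TPM. Kcna5 was low, at no more than 2.82 TPM in any sample and at the floor in 2 samples, both normoxic. Kcnma1 stood at the floor in all 9 samples. The lowest Kcnk3 sample (35.1 TPM) lay above the highest Trpc6 sample (22.2 TPM). Neighbours further down mostly overlapped: Trpc6 (11.8 to 22.2 TPM) with Kcnj8 (8.93 to 13.4 TPM), Cacna1c (4.92 to 8.80 TPM) with Trpc1 (5.55 to 7.57 TPM), and Abcc9 (3.04 to 5.59 TPM) with Kcnmb1 (1.77 to 7.12 TPM).

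**Figure D1:**
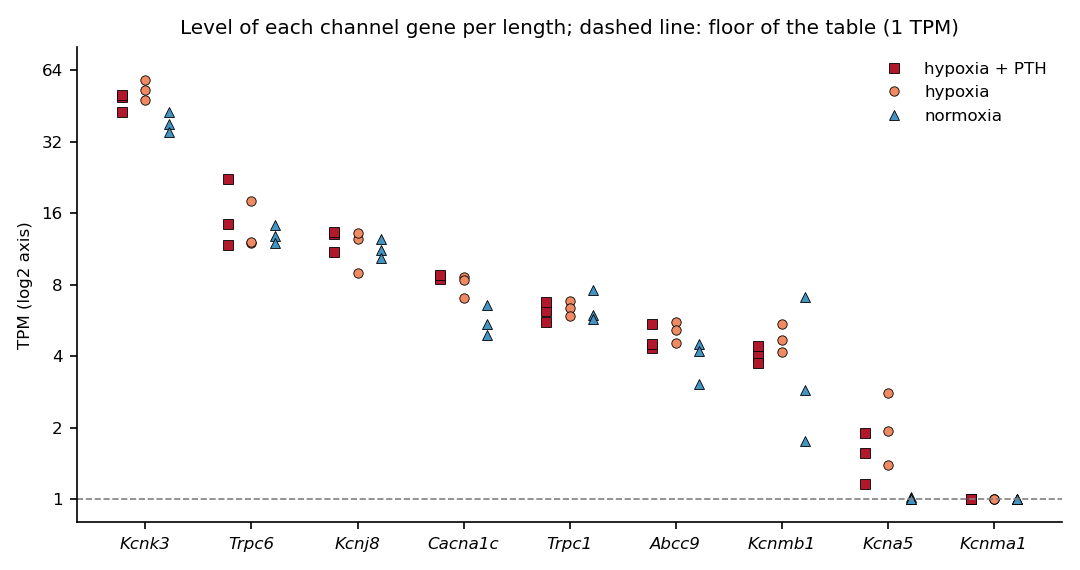
Level of each channel gene per length, in TPM on a log2 axis, with a point for each lung sample (squares, hypoxia with PTH; circles, hypoxia; triangles, normoxia) and a dashed line at the floor of 1 TPM. Kcnk3 lies above all others at 35.1 to 58.3 TPM, and Kcnma1 lies on the floor in all 9 samples.

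None of the 9 genes passed the threshold (edgeR quasi-likelihood test, Benjamini-Hochberg adjusted p under 0.05 over all genes tested) in any of the comparisons, but Kcnk3, Kcna5 and Cacna1c were higher in every hypoxia sample than in every normoxia sample. Hypoxia against normoxia gave calls for 0.57% of all genes tested (112 of 19640), 0.412% with hypoxia higher and 0.158% with hypoxia lower. An unadjusted p under 0.05 was reached by 3 members and by 11.8% of all genes. Groups did not overlap in CPM for 3 members, all with hypoxia higher, where 17.1% of all genes did not overlap, 8.56% with hypoxia higher and 8.57% with hypoxia lower. The median log2 fold change of the 9 members was 0.33, beside -0.0015 over all genes tested, and 7 of the 9 were above 0. DESeq2, run as an alternative, called the same 3 genes higher and 4.05% of all genes (795 of 19640). By limma-voom 0 of the 9 and 0.54% of all genes were called.

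Among the potassium channels, Kcnk3 encodes an acid-sensitive tandem-pore channel that carries a background current at rest. Its gene lies at chr5:30588170-30625271 (mm10, plus strand), and 229 of its 3976 exon bases are shared with the predicted gene Gm9899 on the other strand, which averaged 4.14 CPM against 66.2 CPM for Kcnk3. The strand setting of the counting is not given in the sources used here, so reads of such partners cannot be told apart, but those of Abcc9 and Kcnma1 averaged only 0.0382 and 0.0186 CPM. Kcnk3 had 57.8, 69.4 and 71.5 CPM with PTH, 72.8, 70.1 and 83.3 CPM in hypoxia, and 56.3, 62.9 and 51.7 CPM in normoxia. The 3 hypoxia samples lay above all normoxia samples, and the PTH samples overlapped both groups. Its log2 fold change in hypoxia against normoxia was 0.40 (SE 0.11, 95% interval 0.16 to 0.65), with an adjusted p of 0.144 by edgeR. DESeq2 gave an adjusted p of 0.0388 for the same difference. With PTH against hypoxia the log2 fold change was -0.19 (95% interval -0.43 to 0.06), and with PTH against normoxia it was 0.22 (95% interval -0.03 to 0.46), with adjusted p of 0.634 and 0.350 by edgeR. Hypoxia replicate 5 had the highest Kcnk3 (83.3 CPM) and the highest cardiac sum (1768 CPM). The lowest cardiac sum (76.9 CPM) was that of PTH replicate 5, which had 71.5 CPM of Kcnk3. The part of cardiac or pericyte RNA in the Kcnk3 differences was not tested.

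Kcna5, the gene of a voltage-gated potassium channel of smooth muscle and atrial muscle, had the largest fold of the 9 and rests on few counts, 28 to 159 per sample. It lies at chr6:126532551-126535412 on the minus strand. For this gene of the largest fold the bases before its start site are shown, 5′ to 3′ on its strand, from RefSeq on GRCm38.p6 (chr6:126535556-126535805); they are all in lower case, since none of the motifs searched (described further on) matched.
Kcna5: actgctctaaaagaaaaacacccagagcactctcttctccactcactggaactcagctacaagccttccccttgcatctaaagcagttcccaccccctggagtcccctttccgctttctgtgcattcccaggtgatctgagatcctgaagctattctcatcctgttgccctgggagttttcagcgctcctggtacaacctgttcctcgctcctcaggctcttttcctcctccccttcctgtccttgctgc

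Kcna5 stood at 1.13, 1.94 and 1.61 CPM with PTH, at 1.39, 2.03 and 2.90 CPM in hypoxia, and at 1.09, 0.55 and 0.61 CPM in normoxia. Every sample of both hypoxic groups lay above the highest normoxia sample, in PTH replicate 3 by only 1.13 against 1.09 CPM. Hypoxia against normoxia gave a log2 fold change of 1.49 (SE 0.38, a 2.81-fold difference with a 95% interval of 1.57 to 5.02), with an adjusted p of 0.119 by edgeR and of 0.00937 by DESeq2. With PTH against normoxia the log2 fold change was 1.06 (SE 0.38, 95% interval 0.22 to 1.90, edgeR adjusted p 0.188). Between the hypoxic groups the samples overlapped, with a log2 fold change of -0.44 (95% interval -1.25 to 0.37). Atrial muscle also uses this gene, so the cardiac markers are given beside it. In the sample order used for Kcna5 above, the cardiac sum was 572, 473 and 76.9 CPM with PTH, 485, 1104 and 1768 CPM in hypoxia, and 962, 556 and 301 CPM in normoxia. Within hypoxia the samples had the same order in both. Hypoxia replicate 5 had the highest Kcna5 (2.90 CPM) and the highest cardiac sum (1768 CPM). PTH replicate 5 had the lowest cardiac sum (76.9 CPM, Myh6 at 6.86 CPM) and 1.61 CPM of Kcna5. With a score of cardiac and adipocyte markers in the model, the log2 fold change was 1.29 in hypoxia against normoxia (edgeR adjusted p 0.180) and 1.34 with PTH against normoxia (edgeR adjusted p 0.148). That score mixes cardiac with adipocyte markers, and the part of cardiac RNA in the difference was not tested. On the scale of log2(TPM + 5), which understates changes of low genes, the log2 fold change of Kcna5 was 0.23 in hypoxia against normoxia and 0.12 with PTH against normoxia.

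Kcnj8 and Abcc9 encode the pore and the sulfonylurea receptor of the vascular ATP-sensitive potassium channel and are also used as markers of pericytes. They lie on the minus strand of chromosome 6, Kcnj8 at chr6:142564837-142571614 and Abcc9 at chr6:142587862-142702315, with 16247 bases between them. The sequences before their start sites are printed for this pair of neighbours, 5′ to 3′ on the gene's strand, from RefSeq on GRCm38.p6 and up to the first base that any exon of the gene covers. Kcnj8 (chr6:142571615-142571864, minus strand) holds 1 match to the core of the hypoxia response element, in capitals and read on the opposite strand, and Abcc9 (chr6:142702316-142702524, minus strand) holds none.
Kcnj8: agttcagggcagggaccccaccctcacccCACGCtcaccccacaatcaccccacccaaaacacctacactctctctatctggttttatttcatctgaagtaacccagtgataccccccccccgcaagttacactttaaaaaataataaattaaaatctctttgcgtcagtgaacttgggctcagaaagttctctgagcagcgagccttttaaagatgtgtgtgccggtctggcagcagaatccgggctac
Abcc9: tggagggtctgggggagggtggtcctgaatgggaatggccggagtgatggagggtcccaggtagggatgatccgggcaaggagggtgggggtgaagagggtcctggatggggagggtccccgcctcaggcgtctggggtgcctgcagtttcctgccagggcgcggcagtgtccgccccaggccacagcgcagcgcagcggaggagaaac

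Neither subunit separated the groups. Kcnj8 had 9.53, 11.8 and 12.2 CPM with PTH, 7.92, 11.6 and 12.1 CPM in hypoxia, and 11.8, 10.6 and 9.84 CPM in normoxia. Abcc9 had 12.4, 16.3 and 13.6 CPM with PTH, 13.3, 17.2 and 15.5 CPM in hypoxia, and 14.1, 13.1 and 9.45 CPM in normoxia. All groups overlapped for both genes. Kcnj8 in hypoxia against normoxia had a log2 fold change of -0.03 (95% interval -0.42 to 0.36) and Abcc9 one of 0.33 (95% interval -0.06 to 0.71), with edgeR adjusted p of 0.975 and 0.517. These 2 genes were not in the pericyte list whose summed level was higher in the hypoxic groups.

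The ratio of pore to receptor, in TPM, was 2.62 ± 0.29 with PTH, 2.24 ± 0.30 in hypoxia and 2.95 ± 0.41 in normoxia (SD, n = 3 each). Hypoxia samples (1.96, 2.22 and 2.55) lay below all normoxia samples (2.75, 2.67 and 3.42), a mean difference of log2 ratios of -0.39, and the PTH samples (2.53, 2.39 and 2.95) overlapped both. An exact two-sided permutation test gave p = 0.1 for hypoxia against normoxia, the smallest that 3 against 3 samples allow, and 0.75 when adjusted over the 9 ratio comparisons. The same exact test gave p = 0.3 with PTH against hypoxia and p = 0.4 with PTH against normoxia. Of the 9 ratio comparisons made (3 subunit pairs in 3 comparisons), this was the only one without overlap.

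**Figure D2:**
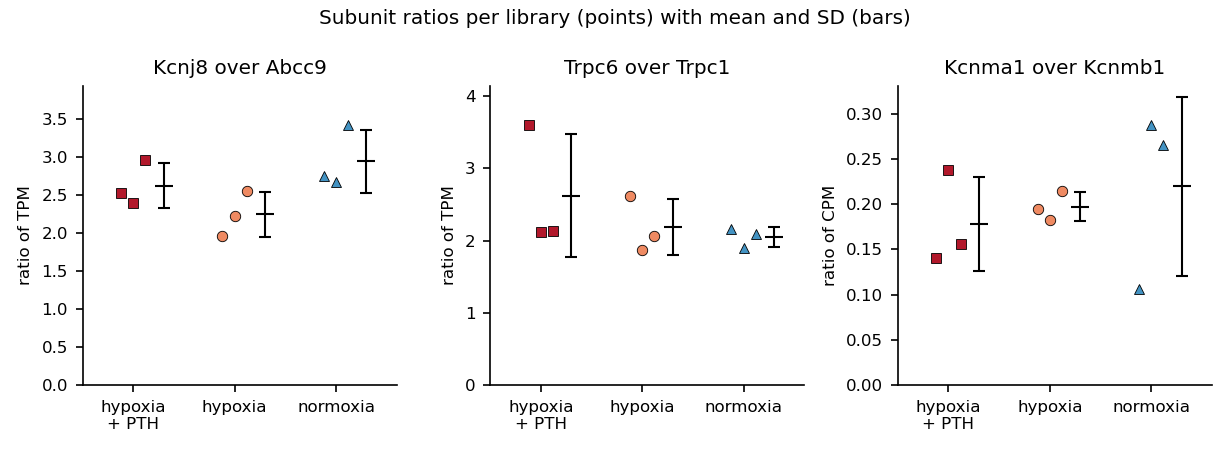
Ratio of subunit expression in each lung sample for 3 pairs (ratio of TPM for Kcnj8 over Abcc9 and Trpc6 over Trpc1, ratio of CPM for Kcnma1 over Kcnmb1), with the mean and SD of 3 samples as bars. For Kcnj8 over Abcc9 the hypoxia samples (1.96 to 2.55) lie below the normoxia samples (2.67 to 3.42), and the other pairs overlap throughout.

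Kcnma1 and Kcnmb1 encode the pore and the smooth muscle accessory subunit of the large-conductance calcium-activated potassium channel. Kcnma1 (chr14:23289431-24014491, minus strand) had 34 to 83 counts per sample. It had 0.80, 1.57 and 0.88 CPM with PTH, 1.19, 1.53 and 1.52 CPM in hypoxia, and 1.18, 0.79 and 1.19 CPM in normoxia, with overlap between all groups. Kcnmb1 (chr11:33963013-33973641, plus strand) had 5.72, 6.61 and 5.63 CPM with PTH, 6.09, 8.39 and 7.07 CPM in hypoxia, and 11.1, 2.76 and 4.49 CPM in normoxia. The normoxia group thus held both the highest and the lowest Kcnmb1 sample. The highest, normoxia replicate 2, also had the highest summed smooth muscle markers of all 9 libraries (1960 CPM). The log2 fold change in hypoxia against normoxia was 0.42 for Kcnma1 (95% interval -0.29 to 1.13) and 0.23 for Kcnmb1 (95% interval -0.70 to 1.16), so changes of either sign fall within both intervals. Without normoxia replicate 2, Kcnmb1 was 0.99 log2 higher in hypoxia (edgeR adjusted p 0.161), and with PTH against normoxia its log2 fold change was 0.73, against -0.03 with all samples. The ratio of Kcnma1 to Kcnmb1 in CPM was 0.178 ± 0.052 with PTH, 0.197 ± 0.016 in hypoxia and 0.220 ± 0.099 in normoxia (SD, n = 3 each), with overlap in every comparison.

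Among the calcium channels, Cacna1c encodes the pore of the L-type channel through which depolarised smooth muscle takes up calcium, and it also serves heart muscle and neurons. The gene spans chr6:118587240-119196418 on the minus strand. RefSeq lists 3 start sites for it, which a count per gene cannot separate; the bases before each are shown because this gene had the smallest p of the 9 in both comparisons with normoxia. They lie at chr6:119196419-119196659, chr6:119108574-119108745 and chr6:118757975-118758224 (GRCm38.p6, minus strand). Capitals in the last mark its match to the core of the hypoxia response element.
Cacna1c, start site 1: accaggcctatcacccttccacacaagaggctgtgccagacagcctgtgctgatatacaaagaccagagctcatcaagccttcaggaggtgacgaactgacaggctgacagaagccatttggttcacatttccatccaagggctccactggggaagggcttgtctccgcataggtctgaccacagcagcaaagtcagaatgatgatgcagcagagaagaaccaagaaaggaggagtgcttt
Cacna1c, start site 2: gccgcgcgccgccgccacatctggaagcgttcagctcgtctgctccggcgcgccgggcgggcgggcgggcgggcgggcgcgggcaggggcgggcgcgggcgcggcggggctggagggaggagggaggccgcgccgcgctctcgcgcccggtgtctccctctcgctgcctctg
Cacna1c, start site 3: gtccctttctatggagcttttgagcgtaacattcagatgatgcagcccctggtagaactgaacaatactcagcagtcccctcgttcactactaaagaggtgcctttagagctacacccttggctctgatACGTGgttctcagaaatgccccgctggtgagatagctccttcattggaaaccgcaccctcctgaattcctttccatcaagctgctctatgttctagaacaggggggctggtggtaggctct

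Cacna1c had 62.0, 63.7 and 66.9 CPM with PTH, 63.8, 64.95 and 53.8 CPM in hypoxia, and 43.0, 38.9 and 51.8 CPM in normoxia. All 6 hypoxic samples, with or without PTH, lay above all 3 normoxia samples. With PTH against normoxia the log2 fold change was 0.53 (SE 0.11, a 1.44-fold difference with a 95% interval of 1.21 to 1.72), with an edgeR adjusted p of 0.0510, just short of the threshold. Over 22 alternatives that adjusted p ran from 0.00153 to 0.255, and 7 of them called the gene higher. Hypoxia against normoxia gave a log2 fold change of 0.45 (SE 0.11, 95% interval 0.20 to 0.70, edgeR adjusted p 0.118, DESeq2 adjusted p 0.0173). The hypoxic groups overlapped, with a log2 fold change of 0.08 with PTH against hypoxia (95% interval -0.17 to 0.33).

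Marker levels of the same libraries are set beside Cacna1c. Every PTH library had low Dbp, and besides these only hypoxia replicate 5 and normoxia replicate 5 did, so PTH and clock phase largely go together in these samples. Among the libraries with high Dbp, Cacna1c was 63.8 and 64.95 CPM in hypoxia replicates 1 and 2 against 43.0 and 38.9 CPM in normoxia replicates 2 and 3. Among those with low Dbp it was 62.0 to 66.9 CPM with PTH and 53.8 CPM in hypoxia replicate 5, against 51.8 CPM in normoxia replicate 5. Without normoxia replicate 5, the only normoxia library with low Dbp, the log2 fold change with PTH against normoxia was 0.65 (edgeR adjusted p 0.0280). PTH and clock phase cannot be told apart in that fit, since all PTH libraries had low Dbp and the remaining normoxia libraries high Dbp. With a clock score in the model the log2 fold change with PTH against normoxia was 0.50 (edgeR adjusted p 0.184), and hypoxia against normoxia gave 0.46. The cardiac sum was lowest in PTH replicate 5 (76.9 CPM), which had the highest Cacna1c of all libraries (66.9 CPM). The pericyte sum did not overlap between the hypoxic groups and normoxia, as for Cacna1c and Kcna5, and its part in their differences was not tested.

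**Figure D3:**
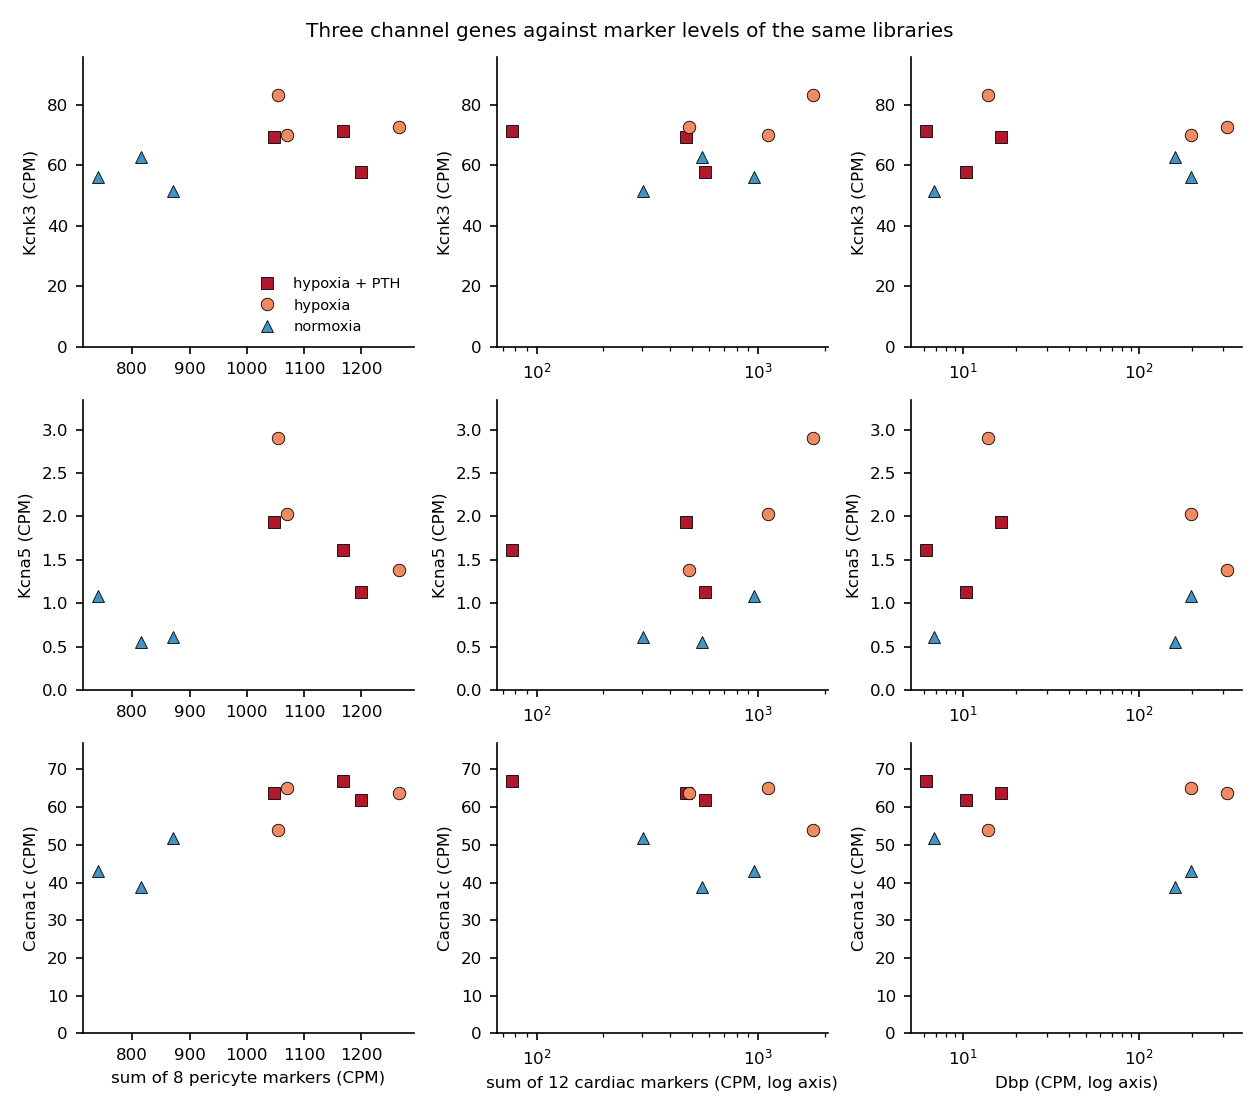
Kcnk3, Kcna5 and Cacna1c in CPM (rows) against the summed pericyte markers, the summed cardiac muscle markers and Dbp of the same library in CPM (columns; the last 2 on log axes), with a point for each sample. Both hypoxic groups lie to the right of normoxia on the pericyte axis (1048 to 1266 against 739 to 871 CPM), and PTH replicate 5 lies far left on the cardiac axis at 76.9 CPM.

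Trpc6 and Trpc1 encode cation channels that admit calcium, Trpc6 opened by diacylglycerol below receptors and Trpc1 most often linked to store-operated entry. Trpc6 (chr9:8544142-8680741, plus strand) had the only match to the CArG box, the site of serum response factor in smooth muscle genes, among the members' windows. The bases before its start (chr9:8543892-8544141, plus strand, GRCm38.p6) are shown with that match and, further on, a match to the core of the hypoxia response element in capitals.
Trpc6: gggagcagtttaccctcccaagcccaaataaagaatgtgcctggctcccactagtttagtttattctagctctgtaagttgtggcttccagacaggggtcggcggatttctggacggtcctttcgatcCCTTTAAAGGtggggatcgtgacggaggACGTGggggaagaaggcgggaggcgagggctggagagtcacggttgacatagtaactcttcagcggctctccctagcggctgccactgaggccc

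Trpc6 had 38.4, 21.2 and 26.2 CPM with PTH, 31.6, 22.4 and 22.1 CPM in hypoxia, and 24.3, 27.1 and 22.4 CPM in normoxia. PTH replicate 3 and hypoxia replicate 1 stood above the rest, and the groups overlapped. Its log2 fold change was 0.17 with PTH against hypoxia (95% interval -0.31 to 0.66), and without PTH replicate 3 it was -0.09. Trpc1 (chr9:95705082-95750375, minus strand) had 16.9, 15.8 and 19.5 CPM with PTH, 19.1, 18.9 and 16.96 CPM in hypoxia, and 17.9, 22.7 and 17.04 CPM in normoxia. Its log2 fold change was -0.07 in hypoxia against normoxia (95% interval -0.36 to 0.22) and -0.14 with PTH against normoxia (95% interval -0.43 to 0.15). The ratio of Trpc6 to Trpc1 in TPM was 2.62 ± 0.85 with PTH, 2.19 ± 0.39 in hypoxia and 2.05 ± 0.14 in normoxia (SD, n = 3 each), with overlap in every comparison.

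**Figure D4:**
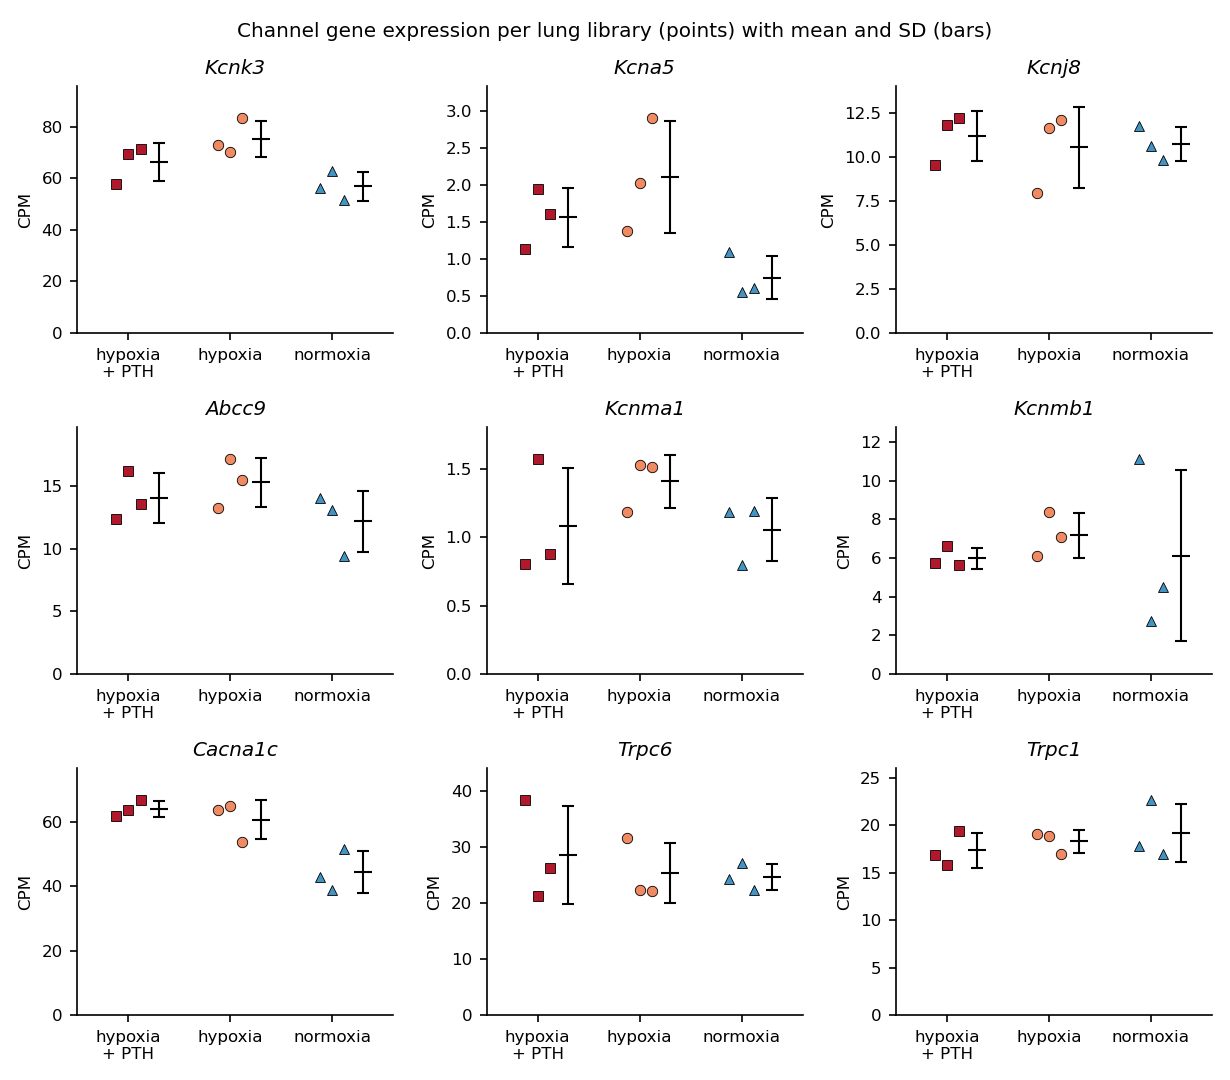
Expression of the 9 channel genes in each lung sample, in CPM on axes that start at 0, with the mean and SD of 3 samples as bars beside the points of each group. Kcnk3, Kcna5 and Cacna1c are higher in every hypoxia sample than in every normoxia sample, and in PTH samples Kcna5 (1.13 to 1.94 CPM) and Cacna1c (62.0 to 66.9 CPM) also lie above normoxia.

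With PTH against hypoxia, none of the 9 genes was called changed and none had groups that did not overlap. Over all genes, 0 of 19640 were called (0%) by edgeR, 1828 had an unadjusted p under 0.05 (9.31%), DESeq2 called 156 (0.794%), and groups did not overlap in 13.9% (6.6% with PTH higher, 7.29% with PTH lower). No member had an unadjusted p under 0.05, and DESeq2 called 0 of them. The median log2 fold change of the members was -0.12, beside -0.01 over all genes tested, and 6 of the 9 were below 0. The largest in size was Kcna5 (-0.44), and edgeR adjusted p ran from 0.634 to 0.932. For Kcnk3, Cacna1c and Trpc1 the 95% intervals stayed between -0.43 and 0.33, whereas for Kcna5, Kcnma1 and Kcnmb1 they reached to -1.25, -1.10 and -1.20, so that log2 differences below -1 were within the intervals of these genes.

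With PTH against normoxia, edgeR called 1.74% of all genes (341 of 19640; 1.27% higher and 0.468% lower) and 0 of the 9 members. Kcna5 and Cacna1c had an unadjusted p under 0.05, where 17.2% of all genes did, and DESeq2 called Cacna1c alone of the 9, where it called 7.24% of all genes (1422 of 19640). By limma-voom 0 of the 9 and 1.56% of all genes were called. The same 2 genes were higher without overlap, where 22.8% of all genes did not overlap, 11.4% with PTH higher. The median over the members was 0.20, beside -0.01 over all genes tested. This comparison shares its normoxia samples with that of hypoxia, so the values are only set side by side. Kcna5 had 1.06 with PTH and 1.49 in hypoxia, Cacna1c 0.53 with PTH and 0.45 in hypoxia, and Kcnk3 0.22 with PTH and 0.40 in hypoxia, each against normoxia.

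**Figure D5:**
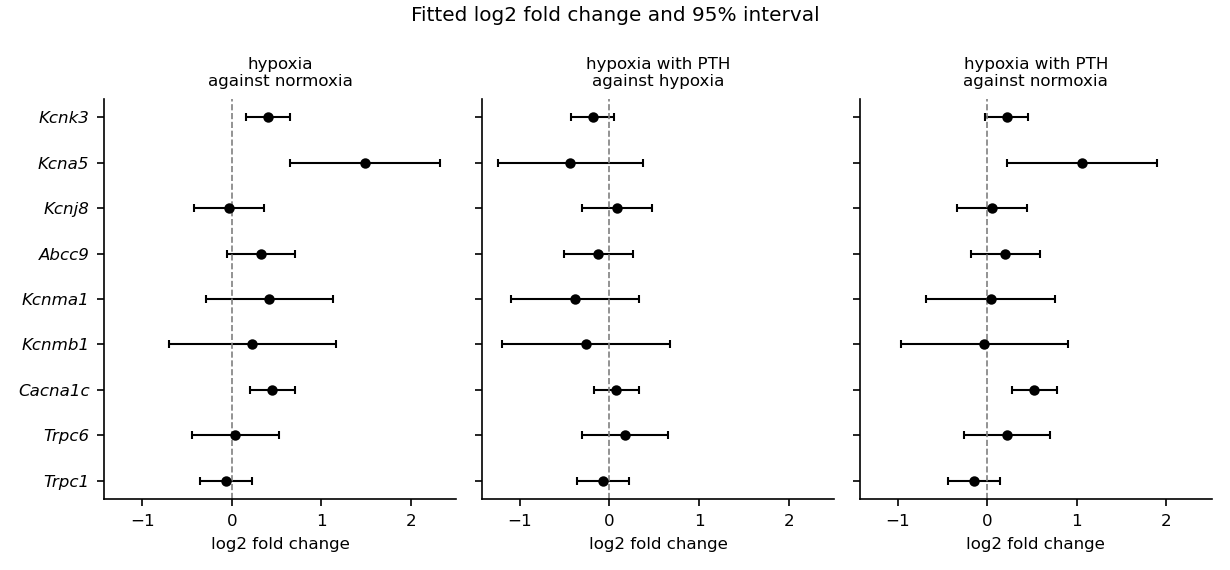
Fitted log2 fold change of each channel gene (points) with its 95% interval (bars) in the 3 comparisons, with a dashed line at 0. In hypoxia against normoxia the intervals of Kcnk3, Kcna5 and Cacna1c lie above 0, with PTH against hypoxia all 9 intervals cross 0, and with PTH against normoxia those of Kcna5 and Cacna1c lie above 0.

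Promoter windows of RefSeq matched 8 of the 9 symbols (10 windows, since Cacna1c has 3), and Kcnk3 had none. In the 250 bases before each start, the core of the hypoxia response element (ACGTG or GCGTG, on either strand) occurred in Kcnj8, Trpc6 and the last start site of Cacna1c. Of all 32851 windows of that length, 38.6% held it. The CArG box occurred in Trpc6, and 1.47% of all windows held it. Neither CACGTG (6.02% of all windows), which contains the ACGTG core, nor TATAAA (12.4%) occurred in a member's window.
Other channel genes gave a wider view of the same families: 156 genes were listed in 7 groups and found, and 116 passed the filter. By group these were 7 other tandem-pore channels, 36 voltage-gated potassium channels, 9 inward rectifier and ATP-sensitive channel subunits, 9 calcium-activated potassium channels, 17 TRP channels, 19 voltage-gated calcium channel subunits and 19 genes of store-operated entry, the sarcoplasmic reticulum and other calcium-related channels (Piezo1, Piezo2 and the chloride channel gene Ano1 among them). Of these, 1 fell in hypoxia against normoxia and 0 rose, which is 0.862% of the 116 beside 0.57% of all genes. An unadjusted p under 0.05 was reached by 24 (14 higher, 10 lower), 20.7% of the 116 beside 11.8% of all genes. The gene that fell was Kcnk5, another tandem-pore background potassium channel, which is sensitive to alkaline pH. It had 6.75, 7.98 and 7.30 CPM in hypoxia and 15.4, 15.2 and 13.5 CPM in normoxia, a log2 fold change of -1.002 (SE 0.12), with an adjusted p of 0.00485 by edgeR, and adjusted p ran from 7.86e-13 to 0.214 over its 22 alternatives. Its relative Kcnk3 differed in the other direction (0.40), without passing the threshold. With PTH, Kcnk5 had 9.55, 10.8 and 9.68 CPM, above every hypoxia sample and below every normoxia sample. Its log2 fold change was 0.45 with PTH against hypoxia (SE 0.12, edgeR adjusted p 0.426) and -0.56 with PTH against normoxia (SE 0.12, edgeR adjusted p 0.0487), a call that 16 of 22 alternatives did not make (0.000494 to 0.296).

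Kcnn3, a small-conductance calcium-activated potassium channel found in endothelium, rose with PTH against normoxia, the only gene of the 116 that passed in that direction. Kcnn3 and Kcnk5 together make 1.72% of the 116 called there, beside 1.74% of all genes. In that comparison 35 of the 116 (21 higher, 14 lower) had an unadjusted p under 0.05, 30.2% beside 17.2% of all genes. Kcnn3 had 12.6, 10.99 and 11.9 CPM with PTH, 11.3, 8.76 and 9.55 CPM in hypoxia, and 5.26, 7.39 and 6.20 CPM in normoxia. Its log2 fold change was 0.91 with PTH against normoxia (SE 0.16, edgeR adjusted p 0.0244, 5.97e-06 to 0.171 over the alternatives, 6 of which did not make the call) and 0.65 in hypoxia against normoxia (edgeR adjusted p 0.108). Without normoxia replicate 2, normoxia replicate 5, PTH replicate 3 or PTH replicate 5 the call was lost, with adjusted p of 0.0740, 0.0547, 0.0529 and 0.0838. Kcnk13, a tandem-pore channel, missed the threshold with PTH against normoxia (1.16, edgeR adjusted p 0.0567). Cacna1i, a T-type calcium channel, had a log2 fold change of -1.45 in hypoxia against normoxia, which also missed the threshold (edgeR adjusted p 0.0889).

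With PTH against hypoxia none of the 116 passed by edgeR, as none of all genes did, and DESeq2 called 3, where it called 0.794% of all genes. An unadjusted p under 0.05 was reached by 15 (9 higher, 6 lower), 12.9% of the 116 beside 9.31% of all genes. The smallest p were those of Kcne2, an accessory subunit of potassium channels, Kcnk5 and Kcnj2, an inward rectifier of smooth muscle, endothelium and heart. Kcne2 had 34.5, 33.1 and 43.2 CPM with PTH and 16.8, 19.4 and 22.2 CPM in hypoxia (log2 fold change 0.92, SE 0.15, edgeR adjusted p 0.231). Kcnj2 had 47.3, 55.5 and 67.4 CPM with PTH and 15.96, 39.1 and 26.6 CPM in hypoxia (log2 fold change 1.06, SE 0.28, edgeR adjusted p 0.426). In both, the PTH samples lay above all hypoxia samples, while normoxia samples had 21.98, 26.5 and 29.5 CPM of Kcne2 and 47.1, 43.8 and 55.0 CPM of Kcnj2.

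Over the 9 samples, the genes whose log2 CPM was most like a member's were ranked by Pearson's r among 13805 genes with a mean of at least 1 CPM, which share libraries and depth. Picked as the highest among so many genes in only 9 samples, these r are high by selection, and none was tested. Cacna1c was most like Atrnl1 (r = 0.97), Mctp1 (r = 0.97) and Usp46 (r = 0.95). Kcna5 was most like Foxc2 (r = 0.96), with Zbtb7c close behind (r = 0.96). Kcnk3 was most like Fbxw5 (r = 0.94), the store-operated channel gene Orai3 (r = 0.93) and Ccdc28a (r = 0.93). The leading gene was Prr16 for Kcnj8 (r = 0.95), Arl6ip4 for Abcc9 (r = 0.92), Rtel1 for Kcnma1 (r = 0.97), Psma4 for Kcnmb1 (r = 0.96), Clk2 for Trpc6 (r = 0.96) and Mmaa for Trpc1 (r = 0.94). No member was among the 3 genes most like another member. Among the members, Kcnk3 and Kcna5 had r = 0.81 over the 9 samples and r = 0.44 within groups, and Kcnj8 and Abcc9 had r = 0.51 and r = 0.70 within groups.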

How the data were processed

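RNA-seq of whole mouse lung (9 samples, 3 groups of 3) was analysed from a deposited table of 53342 genes. Per the submitters' processing notes, reads were trimmed with Trimmomatic 0.39 and aligned with STAR 2.7.9a, on build mm10; as to the counter, strand setting and annotation, each is not given in the sources used here. Values deposited are expected counts (11.6% of those above 0 were whole, within 1e-06) and log2 TPM with a floor of 1 TPM, set by the authors. Of whole counts from 1 to 20, 88.9% were even, so mates seem to have been counted individually and counting error is larger than the counts imply. No gene of chrM was in the table.

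Expected counts were rounded and fitted in edgeR 4.0.16 (R 4.3.3): TMM, filterByExpr with minimum count 10 and total 15, quasi-likelihood F test in 1 model with 6 residual degrees of freedom, adjusted by Benjamini-Hochberg over the 19640 genes kept. The common biological coefficient of variation came to 0.204 and the median SE to 0.171 (log2). The main edgeR fit was also run on simulated counts with the same spread for every gene and no cardiac, fat or clock differences between libraries. The other fits were not. CPM are these counts scaled by TMM. Ratios were tested by exact permutation (SciPy 1.17.1). Positions and exon overlaps were checked against GENCODE M21, sequences are RefSeq's. Alternatives used DESeq2 1.42.0, limma 3.58.1, other filters, pseudocounts, covariates and omitted samples; the muscle and fat score averages centred log2 CPM of cardiac and adipocyte markers, and the clock score sets Dbp-like against Arntl-like clock genes.

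Members and gene lists were chosen with earlier results of these data known. Named genes were the 9 members, the called genes of other channel lists (the 3 with the smallest p where fewer than 3 were called), the 3 genes most like each member (predicted genes left out) and the first genes of marker lists; Myh6 and Dbp stand for their lists. Some genes that this rule names are not reported here. The labels do not say that samples came from separate animals, so p-values speak only to the spread among these samples.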

Additional observations from a re-analysis of the deposited data

How the results depend on the processing

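The members' calls depended on the test. DESeq2 called 3 members in hypoxia against normoxia and 1, Cacna1c, with PTH against normoxia. Cacna1c was also the 1 member called with PTH against normoxia under DESeq2 size factors in edgeR (adjusted p 0.0476), without the filter (0.0227), with a filter of 1 CPM in 3 samples (0.0463) and at a threshold of 0.1. Leaving out single samples gave 0 to 1 members there, 1 without normoxia replicate 5 and without hypoxia replicate 5. Normoxia replicate 5 was the only normoxia library with low Dbp, so without it PTH and clock phase cannot be told apart.

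In hypoxia against normoxia, DESeq2 called 11 of the 116 other channel genes, beside 4.05% of all genes. Other channel genes called numbered 2 without the filter, 2 with the 6 samples compared alone, 4 at 0.1 and 1 to 2 when a sample was left out. Over all genes, DESeq2 called 795, no filter 198, the threshold of 0.1 324, and omission of a sample 50 to 158 (50 without normoxia replicate 3, 52 without hypoxia replicate 1, 70 without hypoxia replicate 5). With PTH against hypoxia, DESeq2 called 3 other channel genes and 156 of all genes, limma on TPM 3 of all genes at each pseudocount (log2 TPM as deposited, TPM + 0.1, TPM + 5), and omission of a sample 0 to 1 (1 without hypoxia replicate 5). With PTH against normoxia, DESeq2 called 15 of the 116 other channel genes, beside 7.24% of all genes. Other channel genes called there numbered 5 without the filter, 1 with the 6 samples alone, 9 at 0.1, 1 with the muscle and fat score, 0 with the clock score and 0 to 2 with a sample left out (0 without normoxia replicate 2 or PTH replicate 5, 1 without normoxia replicate 3, normoxia replicate 5, hypoxia replicate 1 or hypoxia replicate 5). Over all genes, they numbered 1422 by DESeq2, 833 at 0.1, 175 with the muscle and fat score, 76 with the clock score and 81 to 359 with a sample left out (81 without normoxia replicate 2, 84 without normoxia replicate 3, 186 without PTH replicate 4, 83 without PTH replicate 5).

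A block for the replicate number, which leaves 2 residual degrees of freedom and fits hypoxia replicate 1 and PTH replicate 4 exactly, called 8 of all genes in hypoxia against normoxia and 17 with PTH against normoxia, 0 of the other channel genes with PTH against normoxia, and 0 members in all 3 comparisons. Same-numbered samples had residual correlations of -0.0969 to 0.143, within the range of differently numbered samples (-0.267 to 0.271). The labels do not say what the numbers mean, and so few pairs cannot decide whether they pair samples. Under the block the sign turned for Kcnj8 (0.082) and Trpc6 (-0.030) in hypoxia against normoxia, Kcnj8 (-0.035) and Kcnmb1 (0.26) with PTH against hypoxia, and Kcnma1 (-0.23) and Kcnmb1 (0.52) with PTH against normoxia.

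Other log2 fold changes that changed sign had been small or imprecise. In hypoxia against normoxia Kcnj8 was 0.0048, 0.0049 and 0.0070 on deposited log2 TPM, TPM + 0.1 and TPM + 5. With PTH against hypoxia, the muscle and fat score gave 0.050 for Kcna5, 0.10 for Abcc9, 0.23 for Kcnmb1 and -0.030 for Cacna1c, and the clock score 0.040 for Abcc9 and 0.064 for Trpc1. With PTH against normoxia Kcnmb1 was 0.22 by limma-voom, 0.29, 0.28 and 0.068 on the TPM scales, 0.33 with the muscle and fat score and 0.15 with the clock score, which gave -0.047 for Kcnma1. The causes were not tested. Omission of single samples changed signs within these ranges: in hypoxia against normoxia Kcnj8 -0.14 to 0.14, Kcnmb1 -0.12 to 0.99, Trpc6 -0.15 to 0.14 and Trpc1 -0.15 to 0.070; with PTH against hypoxia Kcnj8 -0.081 to 0.20 and Trpc6 -0.094 to 0.36; with PTH against normoxia Kcnj8 -0.0097 to 0.16, Kcnma1 -0.33 to 0.22, Kcnmb1 -0.38 to 0.73 and Trpc6 -0.053 to 0.39. Log2 ratios did so for Trpc6 over Trpc1 (-0.054 to 0.19 in hypoxia against normoxia, -0.024 to 0.37 with PTH against hypoxia) and Kcnma1 over Kcnmb1 (-0.49 to 0.23 in hypoxia against normoxia, -0.67 to 0.042 with PTH against normoxia). Against normoxia, Kcnk3, Kcna5 and Cacna1c kept their sign in all 22 alternatives, but Kcna5 ran from 0.23 to 1.86 in hypoxia and from 0.12 to 1.43 with PTH, lowest at log2(TPM + 5). Kcnma1 was not tested on TPM, where 17523 genes were. Counts of 28 to 159 limit Kcna5, and 34 to 83 Kcnma1.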

Other observations

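Genes of store-operated entry and of the sarcoplasmic reticulum, which refill or release the calcium that muscle contracts with, were listed together with the mechanically gated channels Piezo1 and Piezo2 and the chloride channel gene Ano1. Ryr2 and Sln of this list are also among the 12 cardiac markers. Sln was lowest in PTH replicate 5 (0.0947 CPM) and highest in hypoxia replicate 5 (38.5 CPM). Pln had 0.544 and 34.3 CPM in these libraries, which had the lowest and the highest cardiac sum. The part of cardiac RNA in the values of this list was not tested. All 19 listed genes passed the filter and 0 were called by edgeR in any comparison. An unadjusted p under 0.05 was reached by 3 of them in hypoxia against normoxia (15.8%, beside 11.8% of all genes), by 2 with PTH against hypoxia (10.5%, beside 9.31% of all genes) and by 3 with PTH against normoxia (15.8%, beside 17.2% of all genes). The median log2 fold changes of the 19 genes were 0.15 in hypoxia against normoxia, -0.14 with PTH against hypoxia and -0.13 with PTH against normoxia. The shares lie near those of all genes, and the genes are given as values, named after they were seen. In hypoxia against normoxia they were Orai2, a pore subunit of the store-operated channel (log2 fold change -0.47, SE 0.14), Stim2, a calcium sensor of the reticulum (-0.28, SE 0.09), and Piezo2 (0.40, SE 0.13), with edgeR adjusted p of 0.171, 0.196 and 0.228. With PTH against hypoxia they were Ryr3, a calcium release channel (-1.34, SE 0.46), and Orai2 (0.35, SE 0.14), with edgeR adjusted p of 0.462 and 0.493. With PTH against normoxia they were Piezo2 (0.52, SE 0.13), Stim2 (-0.25, SE 0.09) and Piezo1 (0.49, SE 0.20), with edgeR adjusted p of 0.0794, 0.177 and 0.238. Ryr3 had 0.57, 1.04 and 0.47 CPM with PTH, below the 1.24, 2.84 and 1.21 CPM in hypoxia. In normoxia it had 1.58, 1.21 and 0.72 CPM, which overlap with the PTH samples.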
